A study of Mus musculus with 8 samples.

Results

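The endothelial cells of epididymal adipose tissue were compared between mice on a high fat diet and mice on normal chow. Members were 8067 cell barcodes, of 15763 barcodes in the 4 adipose libraries and 27944 in all 8 libraries of the series. A barcode was a member if it had at least 500 UMIs (unique molecular identifiers, each counting 1 captured RNA molecule) from at least 300 genes and at most 10% of its UMIs from mitochondrial genes. It also needed a UMI of at least 2 of the 4 endothelial genes Pecam1, Cdh5, Cldn5 and Egfl7, and none of Ptprc, the pan-leukocyte gene, or of Adipoq, which encodes the adipocyte hormone adiponectin. The members were thus selected on the UMIs of these 6 genes, whose levels are a description.

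Every mouse was a male with the genotype ROSA26-eYFP+/+ Cdh5-CreERT2+, in which tamoxifen switches on a yellow fluorescent reporter in cells that express the endothelial cadherin gene Cdh5. All groups, chow controls included, ate tamoxifen food for 2 weeks from the age of 6 weeks. The food was then changed, at the age of 8 weeks, to normal chow with 5.8% fat or to high fat food with 60% fat, each given for 12 to 13 weeks. Each library holds sorted cells from the pooled tissue of 6 mice, digested in the presence of the transcription inhibitor actinomycin D, and about 5000 cells were targeted per library. The work was done 2 times, which gave replicates A and B, called runs here. Each diet thus has 2 adipose libraries (n = 2 pools). Barcodes of a pool are not replicates, p-values measure the spread between pools, and no value of a single mouse can be had. The reporter marks any cell in which the Cdh5 promoter drove the recombinase, lymphatic endothelium included, so the sort does not single out 1 vessel type. A mesentery library of each diet and run entered the fit for its estimate of spread and served for the comparison between tissues. The fit assumed 1 shift between runs common to both tissues, so the mesentery libraries can also move the adipose estimates.

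White adipose tissue is threaded by capillaries whose endothelium takes up fatty acids released from circulating lipoproteins and passes them to adipocytes. The lipase Lpl, its capillary anchor Gpihbp1, the fatty acid translocase Cd36 and the cytoplasmic carriers Fabp4 and Fabp5 take part in this transport. Growth of the fat pad on a high fat diet is known to go with growth of vessels, deposition of matrix and entry of macrophages.

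The 4 libraries differed most by run. Chow held 1203 members in run A and 2753 in run B, and the high fat diet held 913 and 3198. Their summed UMIs were 1981403 (chow) and 2022286 (high fat) in run A, and 13724624 and 15302351 in run B. A member had a median of 1482 UMIs (chow) or 1716 (high fat) in run A and 4127 or 3805 in run B. No pair of the 8 libraries shared more than 10 barcodes. Members with exactly 2 of the 4 endothelial genes, just inside the limit, numbered 426 and 273 in run A and 274 and 317 in run B, and barcodes with exactly 1, just outside it, numbered 267 and 198 in run A and 181 and 250 in run B, in the order chow, high fat.

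Esam and Eng, endothelial genes that the selection did not use, were present in every library, while levels of capillary genes differed widely between runs. Levels over all members are counts per 1000000 summed UMIs (CPM), scaled by the normalisation factor of each library. Levels in subsets of members and in barcodes outside the selection are CPM without that factor. Esam, an adhesion molecule of endothelial junctions, was at 452 CPM on chow and 447.7 on high fat diet in run A, and at 624 and 662 CPM in run B. Eng, a co-receptor for BMP ligands, was at 690.5 and 690.4 CPM in run A and at 540.4 and 489 CPM in run B. In barcodes with Ptprc and no endothelial gene, Esam was at 0 CPM in 3 adipose libraries and at 1.64 CPM in high fat run B. Barcodes of this kind, here and below, were also required to hold no Adipoq.

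The runs held different kinds of endothelium, and this bears on every comparison below. For shares, each barcode was thinned to 1000 UMIs, and barcodes below that depth were left out, which kept 906, 682, 2592 and 2956 members in the order chow A, high fat A, chow B, high fat B. Members with at least 2 genes of a capillary list made up 6.62% on chow and 17.0% on high fat diet in run A, but 76.5% and 82.7% in run B. Members with at least 2 genes of a lymphatic list (such as Prox1, the transcription factor of lymphatic identity, and Lyve1, a hyaluronan receptor) made up 48.5% and 41.9% in run A, and 5.25% and 4.87% in run B. Venous list members made up 30.8% and 29.2% in run A and 13.6% and 13.9% in run B, and arterial list members made up 25.4 to 30.3% in all 4 libraries (37.1 to 61.7% with all UMIs). With all UMIs the capillary shares were 12.0%, 29.0%, 84.9% and 91.3%, and the lymphatic shares 52.7%, 43.3%, 6.10% and 5.72%, in the same library order. The shares of different lists can hold the same barcode. Among barcodes with Ptprc and no endothelial gene, thinned in the same way, 8 of 387 had 2 capillary genes in high fat run B, and 0 of 15 in chow run A, with an exact 95% upper limit of 21.8%. The median depth of those barcodes before thinning was 11996 and 1284 UMIs. Within a run the capillary share was higher on the high fat diet both times, by more in run A.

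**Figure D1:**
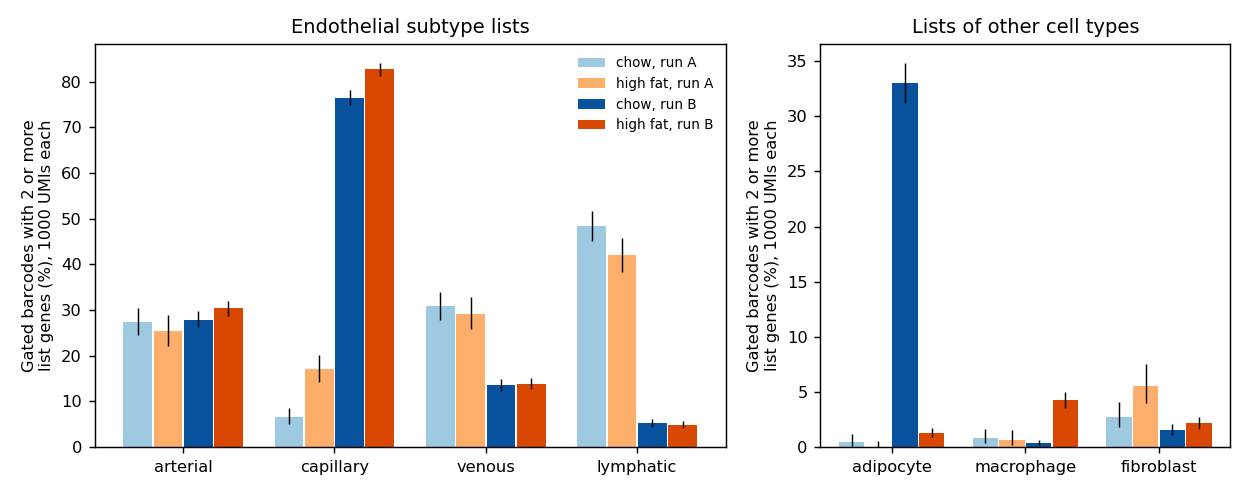
Share of members with at least 2 genes of a list (percent, vertical axis) in the 4 adipose libraries, each barcode thinned to 1000 UMIs. Error bars are exact 95% binomial intervals, which cover counting error only. Capillary shares are 6.62 and 17.0% in run A and 76.5 and 82.7% in run B, lymphatic shares are high only in run A, and 33.0% of members of chow run B have 2 adipocyte genes.

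Of 13362 genes tested for diet in adipose endothelium, 1 was called, and it was lower on the high fat diet (edgeR's quasi-likelihood test, runs as a block, Benjamini-Hochberg adjusted p under 0.05; 0.00748% called). An unadjusted p under 0.05 was found for 380 genes (2.84%), 167 of them higher (1.25%) and 213 lower (1.59%). DESeq2 called 16 genes (0.120%), 10 higher and 6 lower, limma-voom 1, and edgeR on the 4 adipose libraries alone 40 (0.321%). At least 1.5-fold higher in both runs were 153 genes (1.15%), and at least 1.5-fold lower in both were 189 (1.41%). Across all genes tested, which are not independent replicates, the diet ratio of run A and that of run B had a Pearson correlation of 0.102, and of 0.003 over the 6389 genes with a mean of at least 20 CPM. The diet ratios of the 2 runs were thus nearly unrelated across genes. Genes named below beyond the rule for named genes were chosen after their values were seen. Where diets or groups are said to overlap or not, this only describes the 2 libraries of each diet. The share of all genes without overlap is not given here. In a sum over a library, fewer cells of a type and less RNA per cell cannot be told apart.

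The called gene was Cfd (ENSMUSG00000061780, GRCm38 chromosome 10, 79890853 to 79892655, plus strand), which encodes the complement protease adipsin and is a classical product of adipocytes. It was at 5.22 CPM on chow and 0 on high fat diet in run A, and at 407 CPM and 4.55 CPM in run B. Both high fat libraries were below both chow libraries, and chow run B stood far above the other 3. Cfd fell by 6.46 ± 0.28 on the log2 scale (SE; edgeR quasi-likelihood, adjusted p = 0.000583; called in 23 of 28 alternatives, adjusted p from 2.889e-51 to 1). Without chow run B no gene was called, and none was called without high fat run B.

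Other adipocyte genes shared this pattern. Car3, a carbonic anhydrase abundant in adipocytes, was at 7.31 CPM (chow) and 9.65 CPM (high fat) in run A and at 749.6 and 29.1 CPM in run B. Retn, the adipocyte hormone resistin, was at 0 and 2.03 CPM in run A and at 118 and 2.64 CPM in run B. For both genes chow run B was the only high library, and the order of the diets in run A was the opposite of that in run B. Of 13 adipocyte list genes 1 was called (Cfd) and 9 had an unadjusted p under 0.05, all lower. The median difference of the list was -3.37 on the log2 scale over both runs, 0.07 in run A and -2.85 in run B, and the median of all genes tested was 0.00. Summed over the list, the level was 40.2 CPM (run A) and 1665 CPM (run B) on chow, and 42.1 and 95.8 CPM on high fat diet. Cidec, Retn, Adrb3, Pck1 and Plin1 were at 0 in chow run A.

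Chow run B, where the adipocyte list was highest in sum, was also the library with the largest share of barcodes that held Adipoq. Among the remaining adipose libraries Cfd did not follow that share. Among barcodes with at least 2 endothelial genes, Adipoq had a UMI in 6 of 1209 (0.50%) in chow run A and 7 of 924 (0.76%) in high fat run A. In run B it had one in 2269 of 5039 (45.0%) on chow and in 54 of 3377 (1.60%) on high fat diet. The selection removed those barcodes, and 33.0% of the members left in chow run B still had 2 adipocyte list genes at 1000 UMIs (58.1% with all UMIs), against 0.44% (chow A), 0% of 682 (high fat A, exact 95% upper limit 0.54%) and 1.25% (high fat B). In barcodes of chow run B with Ptprc and no endothelial gene, 1 of 20 had 2 adipocyte genes (exact 95% interval 0.13 to 24.87%). These barcodes, like the members, were chosen to hold no Adipoq, and they are few. The value therefore does not show how widely adipocyte RNA was spread over barcodes. In chow run B, 1600 of 2753 members held 97.4% of the UMIs of the list. When members with 2 macrophage or 2 adipocyte list genes were left out, 0 genes were called and 569 of 12408 had an unadjusted p under 0.05. In that set the differences were -4.19 ± 0.48 for Cfd and 3.62 ± 0.73 for Lyz2 on the log2 scale (edgeR adjusted p = 0.4737 and 0.8103). The lists used to leave members out hold these genes, so the lost call says nothing of their source. The source of these transcripts was not tested.

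Macrophage genes did not all share 1 pattern: 9 of 14 genes tested were higher on the high fat diet in both runs and none was lower in both. None was called. The summed list was higher in run B only, but in run A most of that sum came from Mrc1 and Cd14, described below. The run A sum thus says little of the other list genes. Lyz2 (ENSMUSG00000069516, chromosome 10, 117277331 to 117282321, minus strand), the lysozyme of myeloid cells, was at 1.57 CPM on chow and 18.3 on high fat diet in run A, and at 7.08 and 100.1 CPM in run B. C1qb (ENSMUSG00000036905, chromosome 4, 136880129 to 136886187, minus strand), a subunit of complement C1q made by tissue macrophages, was at 1.04 and 6.60 CPM in run A and at 2.79 and 45.9 CPM in run B. For Lyz2 the groups did not overlap, and for C1qb they did not either. The differences were 3.89 ± 0.38 for Lyz2 and 3.88 ± 0.36 for C1qb on the log2 scale, with an adjusted p = 0.0605 for each (edgeR quasi-likelihood). Alternatives gave adjusted p from 2.4e-08 to 1 for Lyz2 and from 8.023e-05 to 1 for C1qb, with a call in 11 of 28 and 11 of 27.

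Of the 15 macrophage list genes 14 were tested, and 8 had an unadjusted p under 0.05, all higher. Of these 14 genes, 8 were at least 1.5-fold higher in both runs, against 1.15% of all genes. The median difference was 2.95 on the log2 scale, 1.06 in run A and 3.04 in run B. Trem2 and Mmp12, genes of lipid-laden macrophages singled out after their values were seen, were at 0 CPM in chow run A and at 3.05 and 2.54 CPM in high fat run A, and at 0.41 and 0.48 CPM on chow and 19.1 and 17.4 CPM on high fat diet in run B. C1qa, C1qc and Ctss were also at 0 in chow run A. The list members with the highest CPM, Mrc1, a mannose receptor, and Cd14, a co-receptor for lipopolysaccharide, did not share the pattern: Mrc1 was at 95.5 and 85.3 CPM in run A and at 15.2 and 15.8 CPM in run B, and Cd14 was at 93.4, 40.6, 3.95 and 6.27 CPM in the same order. Summed over the list, the level was 232 and 67.8 CPM on chow and 229 and 430 CPM on high fat diet, runs A and B.

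In high fat run B, 566 of 3198 members had at least 2 macrophage list genes and held 83.2% of the UMIs of the list. Those members had a median of 5696 UMIs and the others 3481. At 1000 UMIs the share was 4.23% in high fat run B, 0.77% in chow run A, 0.59% in high fat run A and 0.31% in chow run B (1.83, 3.72, 1.56 and 17.7% with all UMIs for chow A, high fat A, chow B and high fat B). In barcodes with Ptprc and no endothelial gene, Lyz2 was at 5930, 1121, 7419 and 13310 CPM in the same order. The part of such cells or of their free RNA in the result was not tested.

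**Figure D2:**
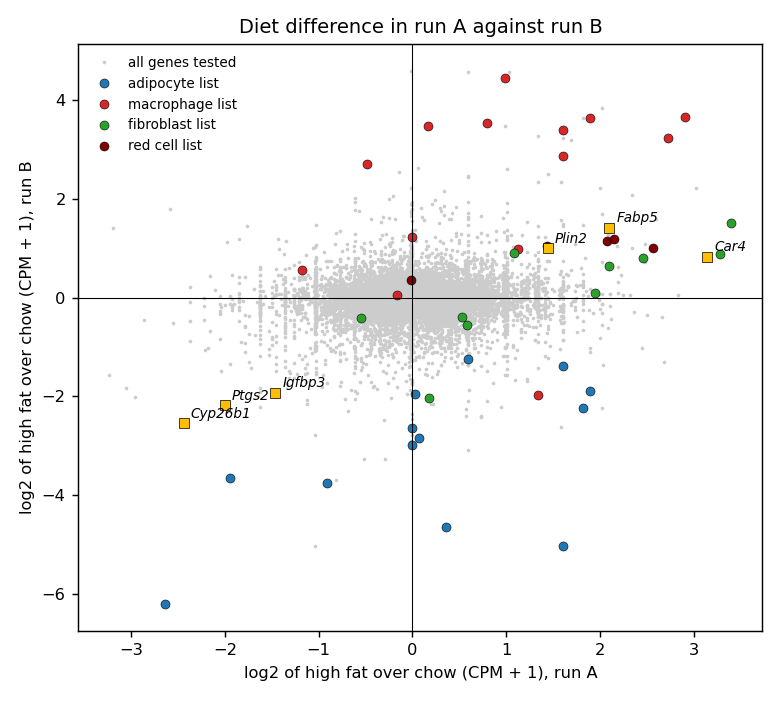
Log2 ratio of high fat over chow (CPM + 1) in run A (horizontal axis) and in run B (vertical axis) for all 13362 genes tested in grey, with list genes and 6 named genes marked. Adipocyte list genes lie low on the run B axis, 3 of them at least 1.5-fold low on both axes, most macrophage list genes lie high on it, and Cyp26b1, Ptgs2 and Igfbp3 are low while Fabp5, Plin2 and Car4 are high on both axes.

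Among genes in no list of another cell type, none was called. The 4 lower genes with the smallest p that met the rule for named genes, none of them called, were Cyp26b1, Ccdc3, Ptgs2 and Prc1. Cyp26b1 (ENSMUSG00000063415, chromosome 6, 84571414 to 84593908, minus strand), which breaks down retinoic acid, was at 37.6 CPM on chow and 6.09 on high fat diet in run A and at 27.0 and 3.83 CPM in run B. Ptgs2 (ENSMUSG00000032487, chromosome 1, 150100031 to 150108227, plus strand), the inducible cyclooxygenase that starts prostaglandin synthesis, was at 51.7 and 12.2 CPM in run A and at 7.14 and 0.79 CPM in run B. Both high fat libraries lay below both chow libraries for Cyp26b1, while for Ptgs2 the high fat library of run A lay above the chow library of run B. The differences on the log2 scale were -2.82 ± 0.41 for Cyp26b1 (edgeR, adjusted p = 0.336) and -2.57 ± 0.44 for Ptgs2 (adjusted p = 0.48).

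Ccdc3, which encodes a secreted protein of endothelium and adipocytes, was at 96.0 and 43.7 CPM in run A and at 40.1 and 15.1 CPM in run B, a difference of -1.28 ± 0.22 (log2, edgeR adjusted p = 0.48). Prc1, a regulator of cytokinesis, was at 7.31 and 2.54 CPM in run A and at 15.2 and 4.55 CPM in run B, -1.68 ± 0.36 (adjusted p = 0.897). Prc1 did not overlap between the diets, and Ccdc3 did. DESeq2 called 3 of these genes, with adjusted p of 3.096e-06 for Cyp26b1, 0.001874 for Ptgs2 and 0.00997 for Ccdc3.

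Higher genes by the same rule, again not called, were Ccl5, Ccl11 and Cadm3. Ccl5, a chemokine for T cells and monocytes, had 0 and 1 UMIs in the chow libraries and 14 and 60 in those of the high fat diet, runs A and B, that is 0 and 0.07 CPM against 7.11 and 3.96 CPM. In barcodes with Ptprc and no endothelial gene it was at 10800 CPM in chow run A and 9434 CPM in high fat run A. The fitted difference of Ccl5 was 5.90 ± 1.02 on the log2 scale (edgeR). It depended on the selection: with only 1 of the 4 endothelial genes required, it was 0.97 ± 1.49, not called. DESeq2 called Ccl5 (adjusted p = 0.04984), as did edgeR on the 4 adipose libraries alone (adjusted p = 0.01772). Ccl11, the eosinophil chemokine eotaxin, was at 1.04 and 4.57 CPM in run A and at 5.03 and 32.8 CPM in run B, 2.81 ± 0.53 on the log2 scale (edgeR adjusted p = 0.597).

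Cadm3, a cell adhesion molecule, was at 4.18 and 8.12 CPM in run A and at 5.44 and 13.1 CPM in run B, 1.18 ± 0.26 on the log2 scale (edgeR adjusted p = 0.92). Cadm3 and Ccl5 did not overlap between the diets, and Ccl11 did.

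**Figure D3:**
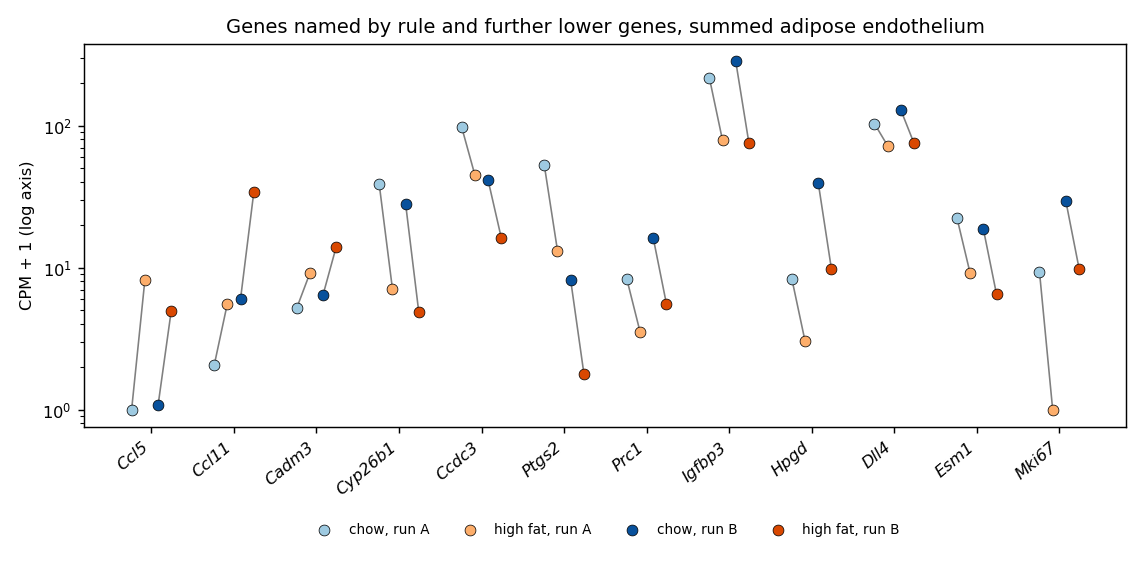
CPM + 1 on a log axis for Ccl5, Ccl11, Cadm3, Cyp26b1, Ccdc3, Ptgs2 and Prc1, which the rule named, and 5 further lower genes, 1 point per adipose library, with lines joining the diets of a run. Cyp26b1 is at 37.6 and 27.0 CPM on chow and at 6.09 and 3.83 CPM on high fat diet, so that neither high fat library reaches a chow library.

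Of 17 genes of fatty acid uptake and transport none was called (percent called 0.00748 over all genes). In both runs 8 were higher on the high fat diet and none was lower, and the median difference on the log2 scale was 0.61 in run A and 0.07 in run B. Fabp5 (ENSMUSG00000027533, chromosome 3, 10012548 to 10016607, plus strand) was at 117 CPM on chow and 508 on high fat diet in run A, and at 1158 and 3082 CPM in run B. Angptl4, a secreted inhibitor of Lpl, was at 32.4 and 150.3 CPM in run A and at 186 and 383 CPM in run B. For both genes the diets overlapped because the runs differed, and within each run high fat was the higher. The fitted differences were 1.73 ± 0.59 and 1.42 ± 0.45 on the log2 scale, neither called (edgeR adjusted p = 1).

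Cd36 was at 99.2 and 465 CPM in run A and at 3956 and 5456 CPM in run B, and Fabp4 was at 2178 and 6809 CPM in run A and at 37890 and 53020 CPM in run B. Lpl was at 21.4 and 102 CPM in run A and at 421 and 522 CPM in run B. For these genes the diet ratio was far larger in run A (log2 2.22, 1.64 and 2.19) than in run B (0.46, 0.48 and 0.31). Adipocytes also express Fabp4, Cd36 and Lpl, and chow run B is the library with 33.0% of members holding 2 adipocyte genes. With members of 2 macrophage or 2 adipocyte genes left out, the fitted difference was 1.74 for Cd36, 1.53 for Fabp4 and 1.81 for Lpl. Over all members it was 1.16, 1.02 and 1.09 (log2, none called in either set). The reduced set kept 1171 of 1203 members of chow run A and 1128 of 2753 of chow run B. For the high fat diet it kept 874 of 913 and 2459 of 3198, runs A and B. The members compared thus also changed, most in chow run B. The part of adipocyte RNA in these ratios was not tested. Aqp7, a channel for glycerol, was at 6.79 and 18.8 CPM in run A and at 288 and 447.5 CPM in run B. Gpihbp1 was at 455 and 683 CPM in run A and at 2515 and 2464 CPM in run B, so its order changed between runs.

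Beside the 8 list genes that were higher in both runs, 22.6% of all genes were higher and 23.6% lower in both. At least 1.5-fold higher in both were 3 list genes. The list's median over both runs was 0.28 on the log2 scale, beside 0.00 over all genes. The capillary list, which shares Cd36, Gpihbp1, Aqp7, Tcf15 and Meox2 with it, had a median of 1.01 in run A and 0.45 in run B, and the share of capillary list members moved the same way. The part of the endothelial mix in these ratios was not tested. Within members with fewer than 2 lymphatic and fewer than 2 arterial genes, Fabp5 was at 228 and 996.5 CPM in run A and at 1550 and 3941 CPM in run B, 1.78 ± 0.36 on the log2 scale (edgeR adjusted p = 0.375). Capillary and venous barcodes were not separated in this set.

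**Figure D4:**
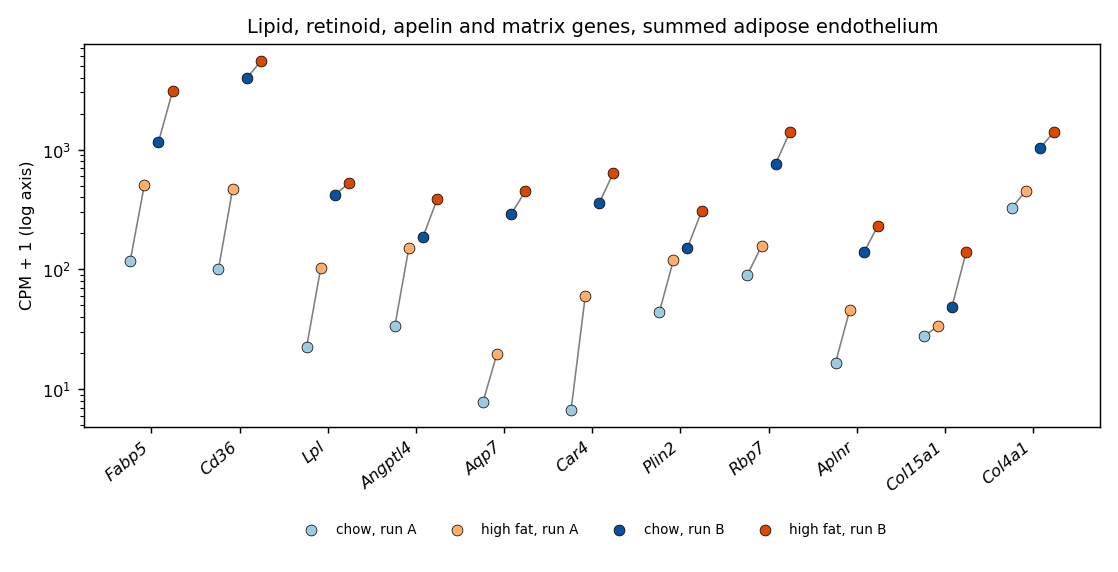
CPM + 1 on a log axis for genes of lipid transport and storage, a retinoid carrier, the apelin receptor and matrix genes, 1 point per adipose library, with lines joining the diets of a run. Only genes that were higher on the high fat diet in both runs are shown, so each line runs upward by choice of the genes. Of 17 genes of fatty acid uptake and transport 8 were higher in both runs, and Gpihbp1, not shown, was not. Fabp5 is at 117 and 508 CPM in run A and at 1158 and 3082 CPM in run B, and the runs lie apart for most genes.

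Other lipid genes gave less. Plin2, the coat protein of lipid droplets, was at 42.8 CPM on chow and 118 on high fat diet in run A and at 151 and 304 CPM in run B, 1.17 ± 0.35 (log2, edgeR adjusted p = 1, unadjusted p = 0.0113). Mgll, which hydrolyses monoacylglycerol, was at 376 and 557 CPM in run A and at 1526 and 1869 CPM in run B. Of the 11 storage and lipolysis genes none was called, 4 were higher and 3 lower in both runs, and the median was 0.07. Of 15 cholesterol genes tested none was called and none had an unadjusted p under 0.05, with a median of -0.03. Scarb1, the HDL receptor, was at 121 and 157 CPM in run A and at 265 and 392 CPM in run B, and Abca1, a cholesterol exporter, at 195 and 188 CPM and at 124 and 173 CPM. Plin2 in barcodes with Ptprc and no endothelial gene was at 318 CPM (chow A), 577 (high fat A), 124 (chow B) and 1274 (high fat B).

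Retinoid genes differed among themselves. Rbp7, a cytoplasmic retinol carrier of adipose capillaries, was at 89.3 and 155 CPM in run A and at 762 and 1398 CPM in run B, 0.84 ± 0.19 (log2, edgeR adjusted p = 0.989). Cyp26b1 was lower in both runs, with the values given above. Of 9 genes of the retinoid list that were tested none was called, and their median was -0.17.

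Genes of prostanoid and insulin-like growth factor biology included further low values. Hpgd, which inactivates prostaglandins, was at 7.31 and 2.03 CPM in run A and at 38.4 and 8.71 CPM in run B, -1.96 ± 0.52 (log2, edgeR adjusted p = 1). Igfbp3 (ENSMUSG00000020427, chromosome 11, 7206086 to 7213923, minus strand), a carrier of insulin-like growth factors, was at 216 and 77.7 CPM in run A and at 282 and 74.0 CPM in run B, -1.69 ± 0.41 (adjusted p = 1, unadjusted p = 0.00407). Both high fat libraries were below both chow libraries for Igfbp3. In members with 2 arterial genes Igfbp3 was at 845 and 267 CPM in run A and at 556 and 132 CPM in run B, and in lymphatic members at 10.8 and 16.3 CPM and at 24.4 and 20.9 CPM.

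Of 13 nitric oxide, endothelin and prostanoid genes none was called, 8 were lower in both runs and 1 higher, with a median of -0.24. Ece1, which activates endothelin, was at 595.5 and 513 CPM in run A and at 418 and 385 CPM in run B, and Ednrb, an endothelin receptor, at 115 and 170.0 CPM and at 265 and 255 CPM. Of 13 insulin and IGF genes none was called, 9 were lower in both runs and 1 higher, with a median of -0.15. Igfbp7 was at 1497 and 1133 CPM in run A and at 1816 and 3000 CPM in run B, and Igfbp4 at 967 and 661 CPM and at 244 and 205 CPM.

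Genes of vessel sprouting went both ways. Dll4, the Notch ligand of tip and arterial cells, was at 102 and 71.1 CPM in run A and at 128 and 74.0 CPM in run B, -0.67 ± 0.20 (log2, edgeR adjusted p = 1). Esm1, a secreted tip cell proteoglycan, was at 21.4 and 8.12 CPM in run A and at 17.7 and 5.48 CPM in run B, -1.66 ± 0.66 (adjusted p = 1). For both, the high fat libraries lay below both chow libraries. Aplnr, the apelin receptor, was at 15.7 and 44.7 CPM in run A and at 137 and 230.4 CPM in run B, 1.06 ± 0.37 (adjusted p = 1), and its groups overlapped.

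Of 20 VEGF, apelin and tip cell genes none was called, 5 were higher and 6 lower in both runs, and the median was -0.03. Flt1, the VEGF receptor 1, was at 478 and 520.3 CPM in run A and at 940 and 968 CPM in run B, and Plvap, of capillary fenestrae, at 916 and 738 CPM and at 387 and 505 CPM. Of 11 Notch genes none was called, and 8 were lower and none higher in both runs, with a median of -0.21. Hes1, a Notch target, was at 221 and 255 CPM in run A and at 238 and 170 CPM in run B, and Notch1 at 192 and 170.0 CPM and at 197 and 185 CPM.

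Of 18 basement membrane and matrix genes none was called, 7 were higher and 4 lower in both runs, 1 was at least 1.5-fold higher in both, and the median was 0.11 on the log2 scale (0.23 in run A and 0.01 in run B). Col4a1 and Col4a2, the chains of basement membrane collagen, were at 326 and 454 CPM and at 205 and 303 CPM in run A, and at 1029 and 1415 CPM and at 587 and 768 CPM in run B. Their differences were 0.47 ± 0.23 and 0.48 ± 0.18 on the log2 scale (edgeR adjusted p = 1 for each). Col15a1, a collagen at the basement membrane border, was at 26.6 and 32.5 CPM in run A and at 47.9 and 138 CPM in run B, 1.04 ± 0.34 (adjusted p = 1), higher mainly in run B. Sparc, a collagen-binding matrix protein, was at 796 and 1253 CPM in run A and at 2345 and 4053 CPM in run B, and Timp3, a metalloproteinase inhibitor, at 1705 and 1824 CPM and at 1280 and 981 CPM.

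Fibroblast genes differed among themselves. Col3a1, a fibrillar collagen, was at 19.3 and 214 CPM in run A and at 26.0 and 75.9 CPM in run B, 2.90 ± 0.95 (log2, edgeR adjusted p = 1). Dcn, the matrix proteoglycan decorin and among the highest of the list, was at 281 and 320 CPM in run A and at 98.3 and 23.4 CPM in run B, -0.63 ± 0.81, and Gsn, the actin-severing protein gelsolin, at 265 and 396 CPM and at 149.5 and 102.1 CPM, 0.09 ± 0.42. Of 10 fibroblast genes 5 were at least 1.5-fold higher in both runs, none was called, and the median was 1.20. Summed over the list the level was 659 and 326 CPM on chow and 1331 and 282 CPM on high fat diet, runs A and B, with none of the listed defining genes Pdgfra, Dcn or Gsn at 0. Members with 2 fibroblast genes made up 2.76% and 5.57% in run A and 1.5% and 2.13% in run B at 1000 UMIs. Their part in the matrix values was not tested.

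The medians of the interferon, antigen presentation and chemokine lists lay on opposite sides of 0 in the runs. The median of 27 interferon genes was -0.17 in run A and 0.49 in run B, that of 16 antigen presentation genes -0.20 and 0.57, and that of 14 chemokine genes -0.19 and 0.46. None of these genes was called. Cd74, the invariant chain of MHC class II, was at 67.3 and 57.9 CPM in run A and at 33.2 and 141 CPM in run B, with high fat run B the highest library. Ifitm3, an interferon-induced membrane protein, was at 2674 and 2396 CPM in run A and at 1794 and 2514 CPM in run B, and Bst2 (tetherin) at 412 and 329 CPM and at 509 and 628 CPM.

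H2-D1 and H2-K1, MHC class I heavy chains of a family with similar sequences whose counts are therefore uncertain, were at 1812 and 1368 CPM and at 1457 and 1300.0 CPM in run A, and at 2205 and 2931 CPM and at 1357 and 1779 CPM in run B. Cxcl12, which guides leukocytes and progenitors, was at 264 and 258 CPM in run A and at 895 and 1861 CPM in run B, and Cxcl9, an interferon-gamma induced chemokine, at 15.7 and 71.6 CPM and at 366 and 271 CPM. Cx3cl1 (fractalkine), a membrane-bound chemokine singled out after its values were seen, was lower in both runs, at 42.3 and 23.4 CPM and at 29.8 and 18.6 CPM, -0.77 ± 0.23 (log2, edgeR adjusted p = 1). Of 10 leukocyte adhesion genes none was called, 2 were higher and 3 lower in both runs, with Icam2 at 288, 277, 325 and 352 CPM and Jam2 at 168, 165, 364 and 380 CPM (chow A, high fat A, chow B, high fat B).

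Of 16 cell cycle genes none was called, 10 were lower and 1 higher in both runs, and the median was -0.65 on the log2 scale, or 0.03 with no condition on Ptprc and Adipoq. Mki67 and Top2a, marks of proliferation, were at 8.35 and 9.39 CPM on chow and at 0 and 1.52 CPM on high fat diet in run A, and at 28.3 and 25.9 CPM against 8.84 and 8.58 CPM in run B. Neither was called (log2 -1.85 ± 0.71 and -1.66 ± 0.60, edgeR adjusted p = 1). In members neither lymphatic nor arterial the fitted difference was 0.23 for Mki67 and 0.95 for Top2a. Pcna was at 57.9 and 43.2 CPM in run A and at 57.3 and 64.0 CPM in run B, and Tyms at 42.3 and 47.2 CPM and at 15.7 and 24.5 CPM.

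**Figure D5:**
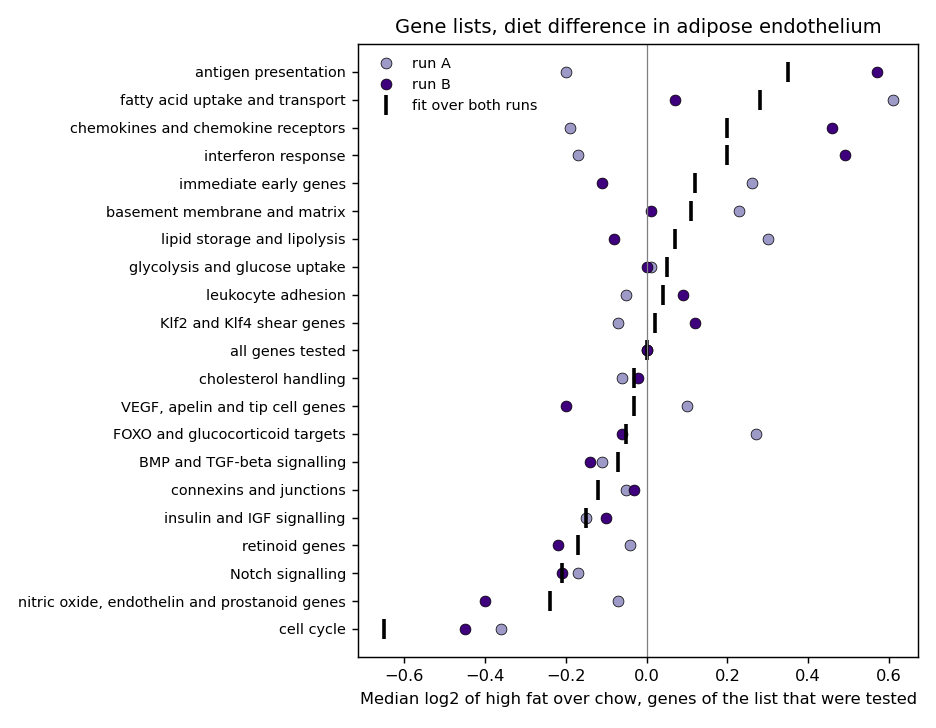
Median log2 of high fat over chow for the tested genes of each pathway list (horizontal axis), in run A, in run B and in the fit over both runs, ordered by the fit, with all genes tested for reference. Interferon, antigen presentation and chemokine lists lie on opposite sides of 0 in the runs, as do others such as leukocyte adhesion and immediate early genes. Cell cycle and Notch genes lie below 0 in both runs. So do further lists, among them BMP and TGF-beta, insulin and IGF, and nitric oxide, endothelin and prostanoid genes.

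Few differences were seen in the remaining lists, where no gene was called. The medians were -0.07 for 19 BMP and TGF-beta genes (7 lower and 1 higher in both runs), -0.12 for 11 connexin and junction genes, 0.05 for 17 glycolysis genes, 0.02 for 10 shear genes and -0.05 for 16 FOXO and glucocorticoid targets. Id3, a BMP target, was at 575 and 516 CPM in run A and at 747 and 961 CPM in run B. Ctnnb1 (beta-catenin) was at 475 and 388 CPM in run A and at 435 and 426 CPM in run B, Gapdh at 595.0 and 548 CPM and at 362 and 479.5 CPM, and Ldha at 283 and 211 CPM and at 218 and 269 CPM. Aqp1, a water channel, was at 1151 and 1234 CPM in run A and at 1262 and 1007 CPM in run B.

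Stress-linked genes separated the runs in both diets. Jun, an immediate early transcription factor, was at 1882 and 3640 CPM in run A and at 228 and 241 CPM in run B, and Jund at 1469 and 1696 CPM and at 285 and 328 CPM. Klf2, a flow-induced factor, was at 1467 and 2423 CPM in run A and at 376 and 459 CPM in run B. Cebpd was at 830.4 and 587 CPM in run A and at 69.5 and 88.6 CPM in run B, and Txnip, a glucose-responsive gene, at 621 and 962 CPM and at 1505 and 1680 CPM. Of 14 immediate early genes none was called for diet, 5 were higher and 3 lower in both runs, and the median was 0.12.

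Genes of other cells were checked in the same way. Of 5 red cell genes 4 were at least 1.5-fold higher in both runs and none was called. Hba-a1 was at 6.26 and 29.4 CPM in run A and at 190.1 and 419 CPM in run B, and Hbb-bs at 17.2 and 48.2 CPM and at 394 and 818 CPM; the haemoglobin copies are near-identical, so their split is uncertain. Of 9 mural cell genes none was called, with Tagln at 215 and 276 CPM and at 155 and 259 CPM, and Rgs5 at 6.79 and 22.8 CPM and at 363 and 405 CPM. Of 2 platelet genes tested, Pf4, which macrophages also express, was at 1.57 and 2.54 CPM and at 4.90 and 19.99 CPM, and Itga2b at 3.65 and 6.09 CPM and at 5.51 and 9.57 CPM. T cell, B cell, mesothelial and Schwann cell lists reached at most 16.7 CPM in sum in any library, with Lck at most 5.08, Ighm 13.0, Cd79a 6.60, Msln 10.2 and Wt1 4.57 CPM.

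Members with arterial genes were also summed alone, a split added after the data were seen. At least 2 of 6 arterial genes and fewer than 2 of 5 lymphatic genes were required, with all UMIs counted. In run A 146 of 1203 (chow) and 119 of 913 (high fat) members met this, and in run B 914 of 2753 and 1152 of 3198. The class thus held a larger part of the members of run B. Those members also had more UMIs, with medians of 4127 and 3805 against 1482 and 1716 in run A. At 1000 UMIs, shares of the 10-gene arterial list were 25.4 to 30.3% in all 4 libraries. The part of depth in the size of this class was not tested. Of 10980 genes tested 20 were called (0.182%), 8 higher and 12 lower. Of the 20, 8 belong to the lists of other cell types: Cfd, Car3, Retn and Cdo1 of adipocytes, Lyz2, Tyrobp and C1qb of macrophages, and Hba-a1.

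The other 12 included Cyp26b1, Fabp5, Ccl11 and 4 genes of cell division. Cyp26b1 was at 62.8 and 3.30 CPM in run A and at 29.8 and 1.62 CPM in run B, and fell by 4.34 ± 0.69 on the log2 scale (edgeR quasi-likelihood, adjusted p = 0.0151). Fabp5 was at 143 and 350 CPM in run A and at 1057 and 2556 CPM in run B, and rose by 1.34 ± 0.24 (adjusted p = 0.0424). Ccl11 was at 0 CPM in both run A libraries and at 4.71 and 34.2 CPM in run B, 2.91 ± 0.47 (adjusted p = 0.0172), so its call rests on run B.

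Mki67 (adjusted p = 0.00275), Top2a (0.00413), Cenpf (0.0424) and Prc1 (0.0424) were called lower in this split by edgeR. Mki67 and Cenpf were at 0 CPM in both run A libraries, and at 46.7 and 36.3 CPM on chow against 1.49 and 0.68 CPM on high fat diet in run B. In members neither arterial nor lymphatic, Mki67 was at 11.7 and 16.8 CPM in run B, and its fitted difference had the other sign. Cyp1a1, an enzyme induced by aryl hydrocarbons, was at 3.49 and 0 CPM in run A and at 36.4 and 0 CPM in run B (adjusted p = 8.947e-05); both high fat libraries being at 0, no fold is given. Lymphatic members alone gave 0 calls of 9235 genes tested and 363 at an unadjusted p under 0.05. Members that were neither gave 6 of 12197 (0.0492%), which were Cfd and the macrophage genes C1qa, C1qb, C1qc, Lyz2 and Trem2.

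Whether the diet difference was particular to adipose endothelium was tested against the mesentery, gated in the same way (7312 barcodes). The interaction of diet and tissue called none of the 13362 genes, and 572 of them (4.28%) had p under 0.05 before adjustment. By DESeq2 the number called was 23, and leaving out a mesentery chow library gave 44 (run A) or 30 (run B). Cyp26b1 differed by -2.82 in adipose and -2.99 in mesentery on the log2 scale (interaction 0.17, unadjusted p = 0.763), and Cfd by -6.46 and -5.34 (interaction -1.12, unadjusted p = 0.0107, adjusted p = 0.877). Dll4 differed by -0.67 and 0.15 (unadjusted p = 0.0216, adjusted p = 1), Col4a2 by 0.48 and 1.71 (0.00152 and 0.677), and Rbp7 by 0.84 and 1.70 (0.0155 and 0.97). None of these differences between tissues was called by edgeR. For Cfd, the mesentery had the same imbalance in adipocyte genes as the adipose libraries. In mesentery chow run B, 24.1% of barcodes with at least 2 endothelial genes held Adipoq, against at most 6.65% in any other mesentery library. Members with 2 adipocyte list genes at 1000 UMIs made up 14.7% there and at most 2.44% elsewhere in mesentery. The part of adipocyte RNA in the mesenteric Cfd difference was not tested.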

How the data were processed

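The authors deposited unnormalised UMI counts per gene and barcode. The counts of run A carry Cell Ranger version 3.0.2 and those of run B 5.0.0, per the file headers, so software and run cannot be told apart. The build mm10 and Seurat 4.3.0 are named in the submitters' processing notes. Aligner settings, the cell-calling step and the sort gate were not given in the sources used here. All 30406 gene identifiers common to the runs were used, and coordinates are from GENCODE M21 (GRCm38). Total UMIs per adipose library were 3461360 to 36779289, and members held 1981403 to 15302351, so low counts limit run A.

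Counts of members were summed per library. edgeR 4.0.16 (TMM, filterByExpr, glmQLFit and glmQLFTest; R 4.3.3) was fitted to all 8 libraries with 1 mean per group and the run as a block, leaving 3 residual degrees of freedom. Runs pair the samples: the labels describe a repeated experiment, and deviations of same-run libraries from their group means correlated at 0.65 to 0.81 over 6 pairs of groups and 11472 genes. Ratios within a run used log2(CPM + 1). Exact binomial intervals cover counting error only. Scrublet in scanpy 1.11.5 marked 1 to 15 barcodes per adipose library, too few to rely on, so doublets were left in and the highest scores left out in an alternative.

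Named genes were, per direction, the called genes with the smallest p, made up to 4 with uncalled ones, that went the same way in both runs, had at least 10 counts in each run and were in no list of another cell type. Each list gave its called genes or else its 2 genes of highest CPM. Some genes that these rules name are not reported here. The members and lists were chosen with earlier results of these data known. The edgeR fit of the diet contrast was tested on simulated data with the same shift between runs in every group. Shifts that differ between tissues were not simulated. Alternatives were DESeq2 1.42.0, limma-voom 3.58.1, other scaling, filters, gates and depths, and single libraries left out.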

Additional observations from a re-analysis of the deposited data

Results flagged for a closer look

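Signals in barcodes that the comparisons did not use stood above the chow libraries. Barcodes with Ptprc and no endothelial gene made up 8.85% of the barcodes that passed the quality limits in high fat run B (390 of 4409), against 0.99% and 0.37% in the chow libraries of runs A and B and 2.11% in high fat run A. Their median was 12013.5 UMIs in high fat run B, and 370 of 387 of them had at least 2 macrophage list genes at 1000 UMIs. Barcodes with at least 2 endothelial genes and Ptprc made up 3.79% of all barcodes with at least 2 endothelial genes in high fat run B (128 of 3377), against 0% of 1209 (exact 95% upper limit 0.30%) and 0.42% on chow and 0.43% in high fat run A. In high fat run B the excluded barcodes and the macrophage genes of the members were thus high together.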

How the results depend on the processing

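Calls in the 3 counts of genes depended on settings. Against 0 genes higher and 1 lower, the fit to the 4 adipose libraries alone gave 20 and 20, DESeq2 10 and 6, no condition on Ptprc and Adipoq 13 and 3, and barcodes thinned to 500 UMIs 2 and 5. No count filter gave 3 higher, 3 of 4 endothelial genes 2, and the 5% mitochondrial limit and lymphatic barcodes left out 1 each. Of the splits added after seeing the data, arterial barcodes alone gave 8 higher and 12 lower, barcodes neither lymphatic nor arterial 5 higher, and both lymphatic barcodes alone and the set without macrophage and adipocyte barcodes 0 lower. Without the replicate block for the pairing by run, 0 genes were called lower and 81 had an unadjusted p under 0.05. Leaving out 1 library gave 0 to 17 higher, 0 to 12 lower and 0 to 44 for the difference between tissues; with DESeq2 that last count was 23. The lone sample left in a group is assumed to vary like the other groups. Among single libraries left out, the largest counts came without a mesentery chow library, and no gene was called without chow run B or high fat run B of adipose.

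Of 52 genes whose difference is given or was examined, 40 kept their sign in every alternative. Some of these genes were chosen for going the same way in both runs, and others after their values were seen. The alternatives also reuse the same libraries, so this count does not measure how stable the differences are. In lymphatic barcodes alone the log2 difference was -0.13 for Rbp7, -0.0049 for Lpl, -0.50 for Car4, -0.34 for Gpihbp1, 0.10 for Igfbp3 and -0.14 for Col4a1. In barcodes neither lymphatic nor arterial it was 1.15 for Prc1, -0.10 for Hba-a1, 0.23 for Mki67 and 0.95 for Top2a. With 1 library left out, the log2 change of Cd74 ranged from -0.33 to 2.18, the low end without high fat run B, and the log2 change of Retn from -5.38 to 3.41, the high end without chow run B. The cause was not tested. Of 441 mean levels under other gates, 20 moved by more than 1 SD over the libraries. That SD includes the difference between runs, so the count does not show that levels were stable. The depth of run A limits what low genes can show: a gene at 0 in chow run A may have up to 3 counts in 1981403.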

Other observations

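Some further endothelial genes also differed in the same direction in both runs, none of them called by edgeR with all 8 libraries. Gja1 belongs to the connexin and junction list, and Nepn to the VEGF, apelin and tip cell list. Car4 is in the capillary list and Cysltr1 in the venous list. Cytl1, a secreted cytokine-like protein, was at 384 CPM on chow and 187 on high fat diet in run A and at 140.0 and 51.3 CPM in run B, -1.23 ± 0.28 on the log2 scale (adjusted p = 0.989; DESeq2 adjusted p = 0.0498). In members with arterial genes it was at 1540 and 762 CPM in run A and at 266 and 75.4 CPM in run B, and in lymphatic members at 31.5, 6.52, 36.6 and 0 CPM. It was lower in the mesentery too (-2.09).

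Car4, a membrane carbonic anhydrase of capillaries, was at 5.74 and 58.4 CPM in run A and at 358 and 639 CPM in run B, 1.78 ± 0.51 (edgeR adjusted p = 1). Cysltr1, the receptor for cysteinyl leukotrienes, was at 9.39 and 12.2 CPM in run A and at 10.4 and 40.5 CPM in run B, 1.41 ± 0.44 (adjusted p = 1). Gja1, the gap junction protein connexin 43, was at 164 and 150.3 CPM in run A and at 248 and 140.1 CPM in run B, -0.51 ± 0.21 in adipose and 0.65 in mesentery (interaction unadjusted p = 0.00523, adjusted p = 0.809). Nepn, a small leucine-rich proteoglycan, was at 3.65 and 7.61 CPM in run A and at 45.1 and 102.3 CPM in run B, 1.16 ± 0.53 (adjusted p = 1). These genes were chosen after their values were seen.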
